A study of Mus musculus with 8 samples.

Results

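Tight junctions seal the sheets of cells that separate brain from blood and from cerebrospinal fluid, and 8 of their genes were followed here in the embryonic hippocampus. They are the claudin genes Cldn1, Cldn2, Cldn3, Cldn5, Cldn11 and Cldn12, the occludin gene Ocln and Tjp1, which encodes the scaffold protein ZO-1. The genes were chosen by name, and all 8 were found among the 16397 genes of the count table and passed the count filter that left 13707 protein-coding genes to test. Hippocampi of C57Bl/6J mouse embryos were taken at embryonic day 15.5 in 2 groups of 4 samples. In the intrauterine growth restriction (IUGR) group the dam carried a micro-osmotic pump that released U-46619, a thromboxane A2 analog that makes her hypertensive, for the 3 days before collection. In the sham group the dam underwent the same surgery on the same day with a pump that held only vehicle. The model acts through the dam and placenta, so the embryos of both groups carry no transgene, and embryos of both sexes were used. The IUGR libraries are named T1-1, T1-3, T1-4 and T1-5 and the sham libraries S1-4, S1-6, S3-1 and S3-4. The meaning of the prefixes is not given in the sources used here, and since T1 marks every IUGR library, prefix and group cannot be told apart.

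Claudins are membrane proteins whose extracellular loops meet those of the neighboring cell, and the claudins a cell makes set which ions and molecules pass between cells. Brain barriers differ in this respect. The epithelium of the choroid plexus, which secretes cerebrospinal fluid, uses Cldn1, Cldn2 and Cldn3, and Cldn2 is known as a channel-forming claudin that lets cations and water through. The endothelium of brain vessels depends on Cldn5, the main sealing claudin of the blood-brain barrier. Cldn11 is found in the barrier layer of the meninges and, later in life, in the myelin of oligodendrocytes. Occludin and ZO-1 are shared by most tight junctions, the former in the membrane and the latter beneath it, where it ties the strands to actin.

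The promoters of 4 of these genes are shown because Cldn1, Cldn2 and Cldn3 serve the same epithelium while Cldn5 serves another barrier. Each window runs 5′ to 3′ on the strand of the gene, from 250 bases before to 50 bases after the RefSeq start in build GRCm38.p6. All 8 genes had such a window, 11 windows in all, since Cldn12 and Ocln have more than 1 start. Capitals mark the letters of 3 motifs searched on both strands, a TATA box (TATAAA), an Sp1 GC box (GGGCGG) and a site of the OTX homeodomain factors (GGATTA).
Cldn1, chr16:26371790-26372089, minus strand: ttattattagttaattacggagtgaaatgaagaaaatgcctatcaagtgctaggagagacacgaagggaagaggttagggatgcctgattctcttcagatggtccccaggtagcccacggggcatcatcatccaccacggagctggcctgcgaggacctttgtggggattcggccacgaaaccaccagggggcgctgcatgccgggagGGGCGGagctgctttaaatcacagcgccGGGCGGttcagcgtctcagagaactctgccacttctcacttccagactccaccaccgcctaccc
Cldn2, chrX:139800558-139800857, plus strand: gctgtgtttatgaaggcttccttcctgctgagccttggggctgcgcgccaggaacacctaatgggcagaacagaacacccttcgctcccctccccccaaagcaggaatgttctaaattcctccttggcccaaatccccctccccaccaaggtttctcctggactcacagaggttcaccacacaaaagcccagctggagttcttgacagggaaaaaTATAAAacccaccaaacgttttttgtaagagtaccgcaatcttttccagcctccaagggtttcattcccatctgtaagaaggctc
Cldn3, chr5:134985964-134986263, plus strand: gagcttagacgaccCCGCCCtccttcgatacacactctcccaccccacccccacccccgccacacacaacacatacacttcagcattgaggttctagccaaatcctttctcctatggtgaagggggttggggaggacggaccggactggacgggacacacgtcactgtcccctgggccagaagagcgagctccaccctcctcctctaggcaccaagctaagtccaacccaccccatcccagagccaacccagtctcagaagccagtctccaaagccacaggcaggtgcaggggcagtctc
Cldn5, chr16:18776597-18776896, plus strand: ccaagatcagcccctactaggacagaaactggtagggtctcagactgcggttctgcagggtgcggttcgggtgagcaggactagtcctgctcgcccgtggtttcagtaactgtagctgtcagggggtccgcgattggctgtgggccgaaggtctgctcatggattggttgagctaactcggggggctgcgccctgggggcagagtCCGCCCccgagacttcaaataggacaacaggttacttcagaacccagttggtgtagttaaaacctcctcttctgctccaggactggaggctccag
Cldn2 was the gene of the 8 with the TATA letters, at position -35 from its start, and it held no GC box. The TATA letters lie in 13.6% of 32851 promoter windows. The GC box letters, present in 35.7% of all windows, lie at positions -42 and -14 in Cldn1, and on the opposite strand at position -236 in Cldn3 and -45 in Cldn5. The OTX letters, present in 7.06% of all windows, were found in Cldn11 at position -175 and in none of the 3 choroid plexus claudins. These matches describe letters in the windows and were not tested for binding.

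Each sample gave 1 library of total RNA without its ribosomal part. Total counts were 12919546 to 16672463 in the IUGR libraries and 11212632 to 15405748 in the sham libraries. Levels are given as CPM, reads of a gene per 1000000 reads of all tested genes after TMM scaling. Markers of neural tissue were found under the tissue label, since all 10 neuronal markers and all 8 radial glia markers listed were tested, with summed levels of 5264 to 5723 and 2913 to 3490 CPM over the IUGR libraries and of 4014 to 5089 and 3107 to 3747 over the sham libraries. Libraries differed in the markers of other tissue. The 18 tested choroid plexus markers summed to 101 CPM for T1-1, 78.8 for T1-4, 379 for T1-5 and 457 for T1-3, against 1176 to 1735 CPM in the sham libraries. Transthyretin (Ttr), the most abundant choroid plexus transcript, exceeded the limit of the count filter and was not tested. The IUGR libraries held 10.2 to 966 CPM of it and the sham libraries 4550 to 10851. T1-3 also stood apart in the 18 meningeal fibroblast markers, which summed to 3305 CPM there and to 215 to 1044 CPM in the other 7 libraries.

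Cldn2 and Cldn3, claudins of the choroid plexus, fell in IUGR hippocampi, while the claudins of the vessels and meninges were not called in either direction. A gene was called when edgeR's quasi-likelihood test gave an adjusted p of at most 0.05 with a log2 fold change of at least 1. Of the 8 genes, Cldn2 and Cldn3 were called lower and none was called higher. Over all tested genes 1.36% were called lower and 1.46% were called in either direction. In Cldn1, Cldn2, Cldn3 and Ocln every IUGR library lay below every sham library, a pattern found in 5.06% of tested genes. The median log2 fold change was -0.92 over the 8 genes and -0.02 over all tested genes. In bulk tissue, fewer cells of a type and less RNA per cell cannot be told apart. Nothing in the sources says that the libraries of a group came from separate dams, so the p values measure the spread between these samples.

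**Figure D1:**
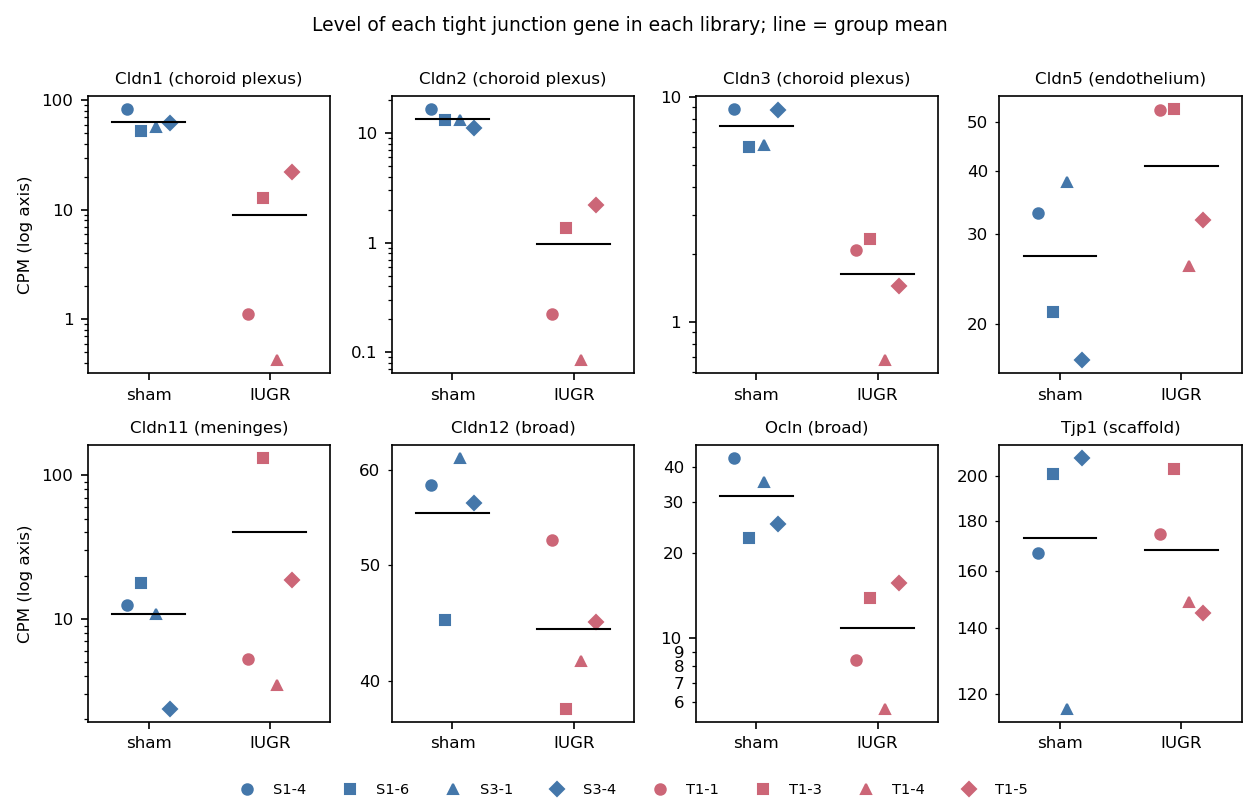
Level of each of the 8 genes in each library, in CPM on a log axis that differs between panels, with sham in blue, IUGR in red, 1 symbol per library and the group mean as a line. The groups do not overlap in Cldn1, Cldn2, Cldn3 and Ocln and overlap in the other 4 genes, and T1-3 lies at 133 CPM in Cldn11.

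Cldn2, the channel-forming claudin of the choroid plexus (chrX:139800828-139811386, GRCm38), had the lowest log2 fold change of the 8 genes. Its level was 0.225 CPM for T1-1, 1.35 for T1-3, 0.0843 for T1-4 and 2.21 for T1-5, and 16.6 CPM in S1-4, 13.2 in S1-6, 13.1 in S3-1 and 11.05 in S3-4. The groups lay far apart, and within IUGR the T1-1 and T1-4 libraries were near the limit of detection, with counts of 3 and 1 against 152 to 180 in the sham libraries. The mean fell from 13.5 ± 2.32 to 0.967 ± 1.00 CPM (SD, n = 4 per group), with a log2 fold change of -3.76 (SE 0.63, edgeR adjusted p = 0.0219). Cldn2 ranked 17 from the lowest log2 fold change of 13707 genes. The call was lost without T1-1 (adjusted p = 0.0530), S1-4 (0.0792), S3-1 (0.0524) or S3-4 (0.0539), with log2 fold changes of -4.49 to -3.41 over all 8 omissions. Without both T1-1 and T1-4, left out after their low levels were seen, the log2 fold change was -2.93.

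Cldn3, a sealing claudin encoded by a short gene on chromosome 5 (chr5:134986214-134987472), also fell but with a different order of libraries. Its level was 2.10 CPM for T1-1, 2.34 for T1-3, 0.674 for T1-4 and 1.44 for T1-5, against 8.87 CPM in S1-4, 5.97 in S1-6, 6.12 in S3-1 and 8.77 in S3-4. The IUGR libraries were all below the sham libraries, and T1-1, among the lowest for Cldn2, was among the highest IUGR libraries for Cldn3. The mean fell from 7.43 ± 1.60 to 1.64 ± 0.745 CPM, with a log2 fold change of -2.16 (SE 0.36, edgeR adjusted p = 0.0226, n = 4 per group). The call was lost without T1-1 (adjusted p = 0.0531), S1-4 (0.0829) or S3-4 (0.0676), with log2 fold changes of -2.36 to -1.91 over all 8 omissions. Without both T1-1 and T1-4 the log2 fold change was -1.96. In the annotation Cldn3 overlaps Wbscr25, an antisense gene that is not in the count table, and the strand setting of the counting is not given in the sources used here.

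Cldn1, a sealing claudin of epithelia (chr16:26356642-26371841), had the highest level per kilobase of exon of the 3 in sham hippocampi. Its level was 1.12 CPM for T1-1, 12.7 for T1-3, 0.421 for T1-4 and 21.9 for T1-5, against 83.6 CPM in S1-4, 51.9 in S1-6, 57.2 in S3-1 and 62.2 in S3-4. The groups did not overlap, but T1-1 and T1-4 lay more than an order of magnitude below T1-3 and T1-5. The difference did not pass the test in edgeR, with means of 9.04 ± 10.3 and 63.7 ± 13.9 CPM and a log2 fold change of -2.81 (SE 0.83, adjusted p = 0.158, n = 4 per group). limma-voom called it, at a log2 fold change of -4.06 (adjusted p = 0.0318). With each library left out in turn, the edgeR log2 fold change was -3.69 to -2.42, and Cldn1 was not called (adjusted p = 0.0677 to 0.339). Without both T1-1 and T1-4 it was -1.88 in edgeR. These 2 libraries hold the lowest Cldn1 levels and were left out after their levels were seen. The smaller spread of that fit is no support for a call.

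Cldn5, the endothelial claudin (chr16:18776847-18778262), was not called. Its level was 52.8 CPM for T1-1, 53.0 for T1-3, 26.0 for T1-4 and 32.0 for T1-5, and 33.0 CPM in S1-4, 21.1 in S1-6, 38.0 in S3-1 and 17.0 in S3-4. T1-1 and T1-3 exceeded all sham libraries, and T1-4 and T1-5 lay within the sham range. The means were 40.9 ± 14.0 CPM in IUGR and 27.3 ± 9.85 CPM in sham, with a log2 fold change of 0.59 (SE 0.30, 95% interval -0.08 to 1.26, edgeR adjusted p = 0.562, n = 4 per group). T1-1 and T1-4, the libraries with the lowest Cldn1 and Cldn2, thus held the second highest and the lowest Cldn5 level of the IUGR group.

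Cldn11, the meningeal claudin (chr3:31149920-31164324), varied more between libraries than between groups. Its level was 5.25 CPM for T1-1, 133 for T1-3, 3.46 for T1-4 and 18.8 for T1-5, and 12.48 CPM in S1-4, 17.7 in S1-6, 10.8 in S3-1 and 2.35 in S3-4. T1-3 was far above all other libraries, and 2 of the 4 IUGR libraries lay inside the sham range. The means were 40.0 ± 62.1 and 10.9 ± 6.39 CPM, with a log2 fold change of 1.89 (SE 1.03, edgeR adjusted p = 0.616, n = 4 per group), which turned to -0.21 without T1-3. In T1-3 the summed level of the meningeal markers was the highest of the 8 libraries as well. The 7 tested markers of oligodendrocyte lineage, the other source of Cldn11, summed to 297 CPM in T1-3, 144 to 183 CPM in the other IUGR libraries and 105 to 167 CPM in sham.

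None of the genes shared by many junctions was called, but occludin did not overlap between the groups. Ocln (chr13:100496507-100552718) was at 8.39 CPM for T1-1, 13.9 for T1-3, 5.65 for T1-4 and 15.7 for T1-5, against 43.0 CPM in S1-4, 22.5 in S1-6, 35.2 in S3-1 and 25.1 in S3-4. All IUGR libraries were below all sham libraries, and the order of the IUGR libraries was that of Cldn1 and Cldn2. The log2 fold change of -1.52 (SE 0.33, n = 4 per group) missed the threshold in edgeR at an adjusted p of 0.0514. It passed without T1-5 (0.0339), without the filter on low counts (0.0477), in DESeq2 (0.000422) and in limma-voom (0.0336). It lay further from the threshold without S1-4 (0.149), T1-1 (0.126), S3-1 (0.126) or S3-4 (0.0961), and at a mean count of at least 50 (0.0943). Tjp1 ranged from 145 to 203 CPM over the IUGR libraries and from 116 to 209 over the sham libraries, with a log2 fold change of -0.04 (SE 0.19, 95% interval -0.47 to 0.38, adjusted p = 1.00). Cldn12, a broadly expressed claudin, ranged from 37.9 to 52.5 CPM over IUGR and from 44.9 to 61.4 over sham libraries, with a log2 fold change of -0.32 (SE 0.15, 95% interval -0.65 to 0.01, adjusted p = 0.471). Both overlapped between groups. Tjp1 (chr7:65296165-65527781) overlaps 3 gene models that are not in the count table, and Cldn12 (chr5:5489537-5514958) none.

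**Figure D2:**
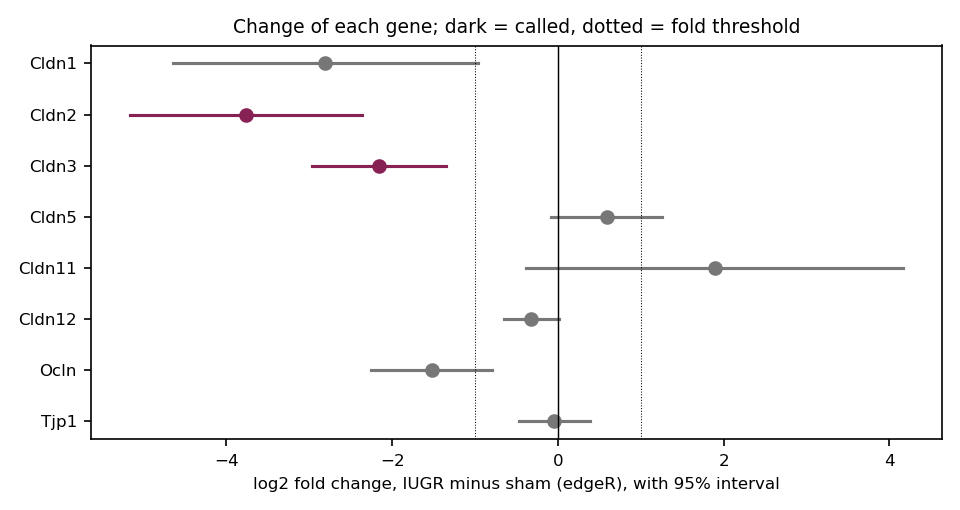
Log2 fold change of each of the 8 genes (IUGR minus sham, edgeR) on the horizontal axis, with its 95% interval as a line and called genes in dark red. The intervals of Cldn1, Cldn2, Cldn3 and Ocln lie below 0, and those of the other 4 genes include 0.

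Other tools changed which of the 8 genes were called. DESeq2's Wald test called 3 (Cldn2, Cldn3 and Ocln), against 2.49% of tested genes called lower by it. limma-voom called 4 (Cldn1, Cldn2, Cldn3 and Ocln), against 2.22% of tested genes.

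Whether the barriers' claudins changed unequally was tested directly, on the log2 ratio of pairs of claudins in each library. The ratio of Cldn2 to Cldn5 was -7.13 for T1-1, -5.14 for T1-3, -6.78 for T1-4 and -3.77 for T1-5, and -1.52 to -0.61 in the sham libraries, a difference of -4.76. The ratio to Cldn5 differed by -4.64 for Cldn1 and by -2.77 for Cldn3, and the ratio to Cldn11 by -4.79 for Cldn1 and by -4.91 for Cldn2. In each of these 5 pairs every IUGR library lay below every sham library, and the exact two-sided permutation test gave p = 0.0286, the smallest that 4 samples against 4 allow (adjusted p = 0.0400 over the 7 pairs tested). Cldn3 against Cldn11 differed by -2.92 (exact permutation test, adjusted p = 0.0667). Cldn5 and Cldn11 were not shown to differ in their change, at -0.15 (exact permutation test, adjusted p = 0.914). None of the 7 pairs passed without S1-4, S3-1 or S3-4, where the 5 differences were -5.02 to -2.48 (exact permutation test, adjusted p = 0.0667 to 0.0800). With a library left out this test has fewer possible splits, so its p moves in coarser steps. The groups stayed apart in the 5 pairs, and these lost calls do not by themselves show a smaller difference. Of the 7 pairs, 4 passed without S1-6, where Cldn1 against Cldn5 was lost (0.0667), and 6 passed without T1-1. The Cldn1 to Cldn5 ratio thus lost its call without any 1 of the sham libraries.

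Each barrier claudin was then set against the markers of its own cell type, as its log2 CPM minus the mean log2 CPM of the list. All 18 tested choroid plexus markers had lower fitted levels in IUGR, 5 of them called (Folr1, Otx2, Car12, Trpv4 and Slc4a2), with a median log2 fold change of -2.84. In 14 of the 18 every IUGR library was below every sham library (5.06% of all tested genes), and 17 had an unadjusted p under 0.05 (11.1%). edgeR's 5 calls stood beside 1.36% of all tested genes called lower, 8 calls in DESeq2 beside 2.49% and 12 in limma-voom beside 2.22%. None of the 5 claudins differed in its change from its list after adjustment over the 5, where a single claudin cannot go below an adjusted p of 0.143, and 1, Cldn2, had an unadjusted p under 0.05. Relative to the choroid plexus markers, Cldn2 differed by -0.87 between groups (exact permutation test, p = 0.0286, adjusted p = 0.143), with every IUGR library below every sham library, and by -0.60 (adjusted p = 0.238) at a prior count of 5, where none of the 5 had an unadjusted p under 0.05. Cldn1 differed by -0.75 (adjusted p = 0.238), which was -0.46 without T1-4. With the summed CPM of the markers the differences were -1.35 for Cldn2 and -1.23 for Cldn1, and neither passed. Cldn3 relative to the same markers was 0.52 in T1-1 and -0.32 in T1-4 but -2.17 in T1-3 and -2.80 in T1-5, against -2.61 to -2.02 in sham. The difference was 1.12 (exact permutation test, adjusted p = 0.314), and it was 0.55 without T1-1, 1.66 without T1-5 and 0.64 with the summed CPM of the markers. Where the choroid plexus markers were lowest, in T1-1 and T1-4, Cldn3 was thus above its sham ratio to them, while T1-3 lay within and T1-5 just below the sham range.

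**Figure D3:**
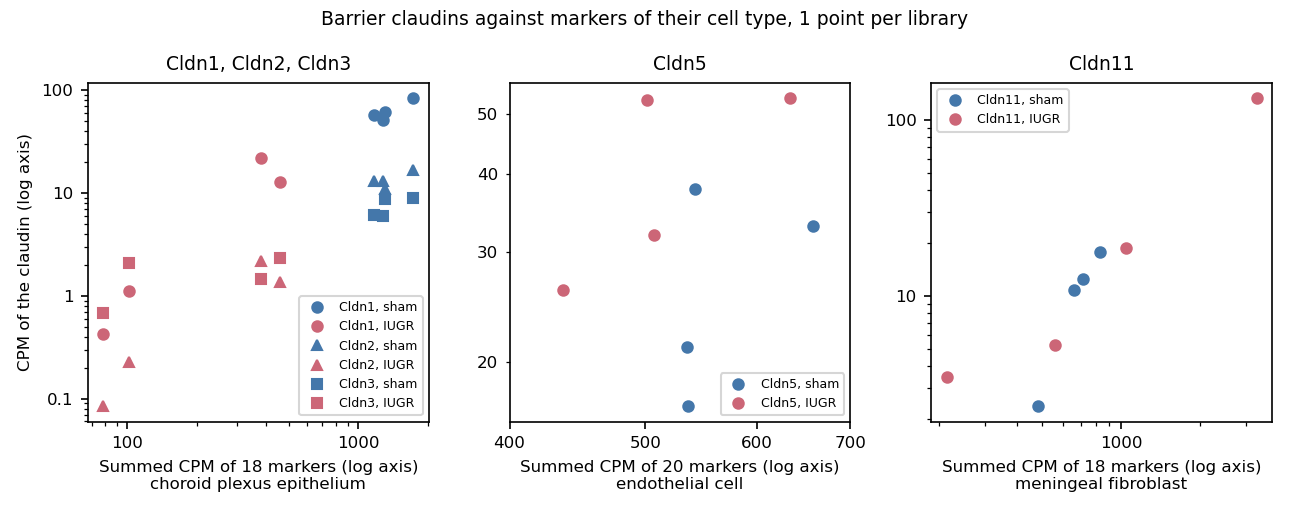
CPM of each barrier claudin (vertical, log axis) against the summed CPM of the tested markers of its cell type (horizontal, log axis), 1 point per library, with sham in blue and IUGR in red. The 4 IUGR libraries lie at 78.8 to 457 CPM of choroid plexus markers against 1176 to 1735 CPM in sham, Cldn5 and the endothelial markers overlap between the groups, and T1-3 is highest for both Cldn11 and the meningeal markers.

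Cldn5 relative to the 20 tested endothelial markers was 1.71 for T1-1, 1.17 for T1-3, 0.96 for T1-4 and 0.78 for T1-5, and 0.16 to 1.19 in sham. The difference was 0.58 (exact permutation test, adjusted p = 0.238), and 0.39 to 0.78 with each library left out in turn. The endothelial markers summed to 437 to 634 CPM over the IUGR libraries and to 535 to 659 over the sham libraries, and to 437 to 626 and 451 to 587 CPM without Slco1a4. Of the 20, 15 had a higher fitted level in IUGR (median 0.35 on the log2 scale), and Tie1, Abcb1a and Robo4 did not overlap between the groups in that direction, at 0.52, 0.90 and 0.49, as 2.08% of all tested genes did not. Podxl, at -0.48, and Slco1a4 had every IUGR library below every sham library, as 5.06% of all tested genes did. edgeR called 0 of 20 (1.46% of all tested genes), with 7 at an unadjusted p under 0.05 (11.1%). DESeq2 called 0 and limma-voom called 1 (Slco1a4), beside 2.22% of all tested genes called lower by limma-voom. In contrast to most of the list, Slco1a4, an organic anion transporter of the blood-brain barrier, had a log2 fold change of -2.93 (SE 0.96, edgeR adjusted p = 0.217) with 0.525 CPM in T1-1 and 0.169 CPM in T1-4, the libraries lowest in choroid plexus markers. Cldn11 relative to the 18 meningeal markers differed by 0.58 (exact permutation test, adjusted p = 0.314), with 0.77 in T1-3, -1.02 in T1-1 and -2.01 to -0.29 in sham. That difference was 0.26 without T1-3 and 0.17 without S3-4. Of the 18 meningeal markers 16 had a higher fitted level in IUGR, at a list median of 1.07 on the log2 scale, and without T1-3 these were 7 of 18 and -0.02. edgeR called 0 of the 18 (1.46% of all tested genes), with 3 at an unadjusted p under 0.05 (11.1%). These 3 were Cemip and Slc22a6, with log2 fold changes of 0.81 and 2.70, and Ogn, with -1.49. DESeq2 and limma-voom called 0 of the list.

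Other cells that could carry these junctions or share the dissection were examined by lists in the same way. edgeR called 0 of 6 arachnoid barrier markers, 0 of 11 pericyte markers, 0 of 7 oligodendrocyte lineage markers, 0 of 8 radial glia markers, 0 of 10 neuronal, 0 of 10 microglial and 0 of 9 erythroid markers. At an unadjusted p under 0.05 these counts were 2, 2, 5, 0, 6, 1 and 0, so that 5 of 7 oligodendrocyte lineage and 6 of 10 neuronal markers stood beside 11.1% of all tested genes. Fitted levels were higher in IUGR for 4 of 6 arachnoid, 10 of 11 pericyte, 7 of 7 oligodendrocyte lineage, 4 of 8 radial glia, 9 of 10 neuronal, 10 of 10 microglial and 9 of 9 erythroid markers, with list medians of 0.37, 0.39, 0.45, -0.04, 0.46, 0.30 and 0.46, against 6099 of 13707 tested genes and a median of -0.02. Without T1-3 the microglial tally was 2 of 10 with a median of -0.08, and the other 6 tallies moved by at most 1 gene. DESeq2 and limma-voom both called Krt18 of the arachnoid list, which was lower in IUGR (edgeR log2 fold change -3.04). Every IUGR library lay below every sham library in Krt18, as in 5.06% of all tested genes. DESeq2 called 2 neuronal genes and limma-voom 1 (Syt1 and Nefl between them), both higher in IUGR (1.08 and 1.24 in edgeR). The 2 tools called 0 in the remaining lists. Over all 13707 tested genes edgeR called 200, DESeq2 425 and limma-voom 328.

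Levels of different genes were compared per kilobase of exon. In sham hippocampi the order from high to low was Tjp1 (22.2 ± 5.41 CPM per kb), Cldn5 (19.3 ± 6.96), Cldn1 (13.2 ± 2.87), Cldn12 (13.1 ± 1.70), Ocln (7.45 ± 2.24), Cldn3 (5.90 ± 1.27), Cldn11 (5.80 ± 3.42) and Cldn2 (4.06 ± 0.698). Cldn12 and Ocln were the neighbors in this order whose libraries did not overlap, and all other neighbors overlapped. In IUGR the order was Cldn5 (28.9 ± 9.87 CPM per kb), Tjp1 (21.5 ± 3.46), Cldn11 (21.4 ± 33.2, mostly T1-3), Cldn12 (10.4 ± 1.47), Ocln (2.58 ± 1.11), Cldn1 (1.87 ± 2.12), Cldn3 (1.30 ± 0.592) and Cldn2 (0.291 ± 0.301). Again Cldn12 and Ocln alone did not overlap among neighbors. Cldn1 moved from the third to the sixth place.

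The make-up of the claudin RNA differed between the groups. Cldn1, Cldn2 and Cldn3 together made 40.1% of the per-kilobase level of the 6 claudins in S1-4, 35.7% in S1-6, 30.4% in S3-1 and 46.5% in S3-4, and 3.61% for T1-1, 4.00% for T1-3, 2.11% for T1-4 and 12.8% for T1-5. The groups did not overlap. Cldn5 made 24.1 to 39.6% in sham and 68.4% for T1-1, 59.9% for T1-4, 45.6% for T1-5 and 30.6% for T1-3. In T1-3 the largest share was that of Cldn11, at 58.0%. As shares of 1 total, they do not show which claudin changed.

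**Figure D4:**
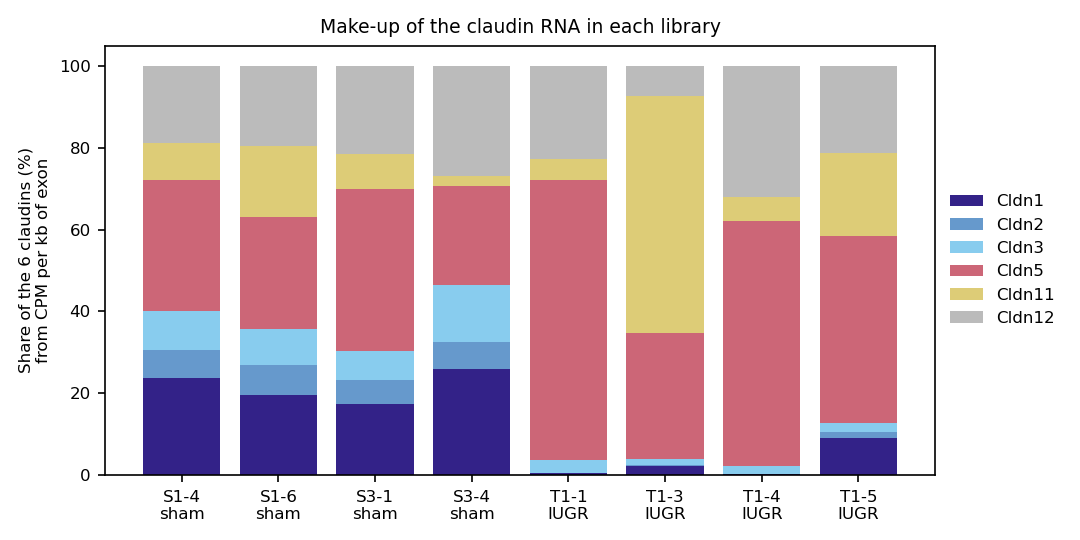
Share of each of 6 claudins in their summed level, in percent of CPM per kilobase of exon, 1 bar per library. The blue shades of Cldn1, Cldn2 and Cldn3 take 30.4 to 46.5% of each sham bar and 2.11 to 12.8% of each IUGR bar, and Cldn11 takes 58.0% of T1-3.

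The genes most like each barrier claudin across the 8 libraries, with the group means removed, were found among 11906 tested genes by Pearson's r of log2 CPM. These correlations are descriptions over 8 libraries that share depth and tissue make-up. For Cldn2 they were Cldn1 (r = 0.993), Car12 (0.992), Acss3 (0.989), Kcnj13 (0.989) and Serpinb1b (0.986), of which Car12, a carbonic anhydrase, and Kcnj13, a potassium channel, are on the choroid plexus list. For Cldn11 they were Akap2 (0.995), Pcolce (0.990), Pakap (0.990), Lgals1 (0.981) and Acta2 (0.981), where Akap2 and Pakap overlap on the same strand and may share reads. For Cldn5 they included Sys1 (0.968), Eepd1 (0.955), Ddost (0.953) and Arl10 (0.937), none of them on the endothelial list. Among the members, Cldn3 correlated with Cldn2 at 0.47 and Ocln with Cldn2 at 0.88.

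The remaining junction genes were examined by list. Of 25 other claudin genes listed, 6 were tested, and 1 of these was called, against 1.46% of all tested genes, at a list median of 0.07 on the log2 scale. Cldn9, an epithelial claudin, fell from 3.68 ± 0.616 to 0.771 ± 0.417 CPM (log2 fold change -2.22, SE 0.44, edgeR adjusted p = 0.0354, n = 4 per group). Its level was 0.974 CPM for T1-1, 1.11 for T1-3, 0.169 for T1-4 and 0.836 for T1-5 and 3.03 to 4.25 CPM in sham, with T1-1 not among the lowest, as in Cldn3. Cldn4, which lies 39280 bases from Cldn3 on chromosome 5, was at 1.57 CPM for T1-1, 1.17 for T1-3, 0.0843 for T1-4 and 2.66 for T1-5 and at 0.173 to 0.462 CPM in sham. It had a log2 fold change of 2.13 (SE 0.75, adjusted p = 0.260), opposite in sign to that of Cldn3, and was not called. Cldn19 had a log2 fold change of -1.07 (adjusted p = 0.266).

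Of 11 other tight junction membrane proteins tested, 1 was called, against the same 1.46%, and the median log2 fold change was -0.27. Crb3, the epithelial member of the Crumbs family of apical polarity proteins, fell from 4.99 to 0.336 CPM (log2 fold change -3.79, SE 0.59, edgeR adjusted p = 0.0162, n = 4 per group), with no count in T1-4. Crb3 overlaps Slc25a23 and Dennd1c on the other strand, both in the count table. The junctional adhesion molecules F11r, Jam2 and Jam3, which help to place the strands, had log2 fold changes of -0.44, -0.08 and -0.27 and were not called.

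Among scaffold and polarity genes beneath the membrane, edgeR called 0 of 24, near the 1.46% called over all tested genes, with 3 at an unadjusted p under 0.05, near the 11.1% of all tested genes, and DESeq2 and limma-voom called 0. Tjp3 and Pard6b had every IUGR library below every sham library (5.06% of all tested genes). Their log2 fold changes ran from -0.75 (Pard6b, of the apical PAR complex, adjusted p = 0.124) to 0.26 (Prkcz, adjusted p = 0.789), with a median of -0.06. ZO-3 (Tjp3), largely an epithelial scaffold, had a log2 fold change of -0.60 (adjusted p = 0.246). Of 13 cadherin and catenin genes of the adherens junction, edgeR called 0 (1.46% of all tested genes), with 3 at an unadjusted p under 0.05 (11.1%). DESeq2 called 1 (Cdh3), beside 2.49% of tested genes called lower by it, and limma-voom called 0. Cdh3 (P-cadherin) had a log2 fold change of -2.91 (SE 0.70, edgeR adjusted p = 0.0746). Its IUGR libraries were all below its sham libraries (5.06% of all tested genes). Cdh5, the endothelial cadherin, had a log2 fold change of 0.77 (SE 0.37, edgeR adjusted p = 0.491).

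**Figure D5:**
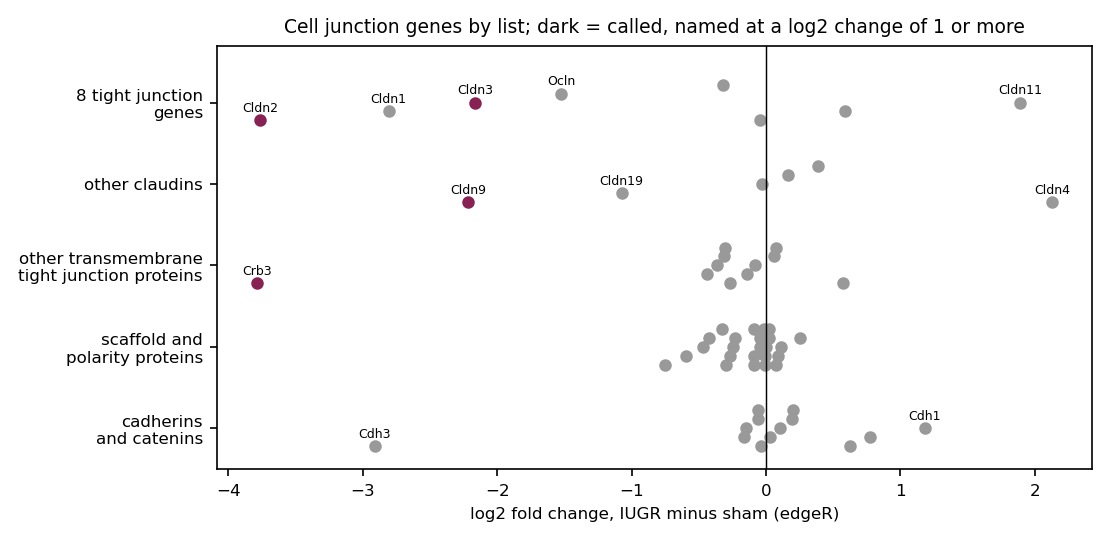
Log2 fold change (IUGR minus sham, edgeR) of every tested junction gene, 1 point per gene in 5 rows by list, with called genes in dark red and names at a change of 1 or more in either direction. Cldn2, Cldn3, Cldn9 and Crb3 are the called genes, and the 24 scaffold and polarity genes lie between -0.75 and 0.26.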

How the data were processed

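Total RNA of 4 IUGR and 4 sham hippocampi was made into stranded, ribosome-depleted libraries and sequenced as single reads. The authors aligned reads to GRCm38 (the submitters' processing notes name Novoalign 2.8 and mm10) and deposited raw counts per gene, not normalized. The counting program, annotation release and strand setting are not given in the sources used here. Identifiers were matched to GENCODE M21 (16124 of 16397; 14564 protein-coding), and genes were tested if their mean count reached 10 and stayed under 50000. Tests used R 4.3.3 with edgeR 4.0.16 (TMM, quasi-likelihood), and p values were adjusted by Benjamini-Hochberg over 13707 genes. CPM used TMM-scaled totals of tested genes, and log2 CPM a prior count of 2. Claudin pairs (7) and claudins against markers (5) were tested by exact permutation, two-sided. The genes, the 4 junction and 10 marker lists and the tests were chosen with earlier results of these data known. Named genes are the 8 members, list genes that were called or have a defining role, and the 5 genes most correlated with Cldn2, Cldn5 and Cldn11 (mean count at least 50). Some genes that this rule names are not reported here. Within a group, libraries differed by more than sampling noise (chi-square per degree of freedom 27.2 to 71.8 over 12 pairs). Scripts were tested on simulated data. Alternatives were DESeq2 1.42.0, limma-voom (limma 3.58.1), other normalizations, filters and prior counts, omission of each library, S1 or S3 sham libraries alone and, chosen after seeing the data, omission of both T1-1 and T1-4. Intervals cover these samples only.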

Additional observations from a re-analysis of the deposited data

Results flagged for a closer look

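Cldn11 in T1-3 stood apart from the other IUGR libraries, at 133 CPM, with a gap to the next library of 0.881 of the group's range, above Dixon's 95% critical value for 4 samples. The summed level of the endothelial markers in S1-4, 659 CPM, stood apart from the other sham libraries in the same way, at 0.942 of the range. These were 2 of 44 groups of 4 libraries examined, and chance alone gives about 1 in 20.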

How the results depend on the processing

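The number of the 8 genes called, 2 in the edgeR fit, was 4 in limma-voom, 0 with the S1 sham libraries alone and 0 with the S3 sham libraries alone, and 0 to 3 when each library was left out. It was 0 without T1-1, S1-4 or S3-4, 1 without S3-1 and 3 without T1-5. Calls over all 13707 genes moved as well, from 200 to 0 and 2 with the S1 and S3 sham libraries alone and to 65, 41 and 60 without T1-1, S1-4 and S3-4, so a count of 0 members says little about these genes. The log2 fold change of Cldn2 was -3.91 and -3.59 with S1 and S3 alone. Without both T1-1 and T1-4 the number of the 8 genes called was 3 (Cldn1, Cldn2 and Cldn3), beside 239 calls over all 13707 genes. Those libraries were left out after their low levels were seen. Of the 7 claudin pairs, 5 passed under prior counts of 0.5 and 5, and 0 to 6 when each library was left out. The log2 fold change of Cldn11 reversed to -0.21 without T1-3, and omissions of a library gave -0.21 to 2.29. That of Tjp1, near 0, reversed to 0.011, 0.021, 0.065 and 0.060 without T1-4, T1-5, S1-6 and S3-4, to 0.068 with the S3 sham libraries alone and to 0.0095 without T1-1 and T1-4, with omissions giving -0.19 to 0.065. The difference between Cldn5 and Cldn11 reversed to 0.75, 0.058 and 0.25 without T1-3, T1-5 and S3-4, with omissions giving -0.78 to 0.75. The causes were not tested. Cldn1, Cldn2, Cldn3 and Ocln kept a negative log2 fold change in all 18 alternatives run for each. Counts of 1 to 3 in Cldn2 limit how low its IUGR level can be read. No paired analysis was possible because the replicate numbers of the groups name samples in accession order and the library names share no numbering that pairs them.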
